A study of Mus musculus with 43 samples.

Results

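The 6 genes described here are the insulin receptor substrates Irs1, Irs2 and Irs4 and the forkhead transcription factors Foxo1, Foxo3 and Foxo6. They were chosen by name, as the rows of the expression table whose Ensembl identifier maps to one of these symbols, and they make up 6 of the 10127 genes in the table. Insulin and insulin-like growth factors act on receptor tyrosine kinases at the cell surface, and the substrate proteins bind the activated receptor, become phosphorylated on tyrosine and recruit phosphoinositide 3-kinase (PI3K). The kinase AKT is then activated and phosphorylates FOXO proteins, which bind 14-3-3 proteins and leave the nucleus. When insulin is low, as in fasting, FOXO proteins remain nuclear and regulate their target genes. In the hypothalamus, Foxo1 is known to raise Npy and Agrp and to oppose Pomc transcription in arcuate neurons that control feeding.

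RNA was sequenced from 4 hypothalamic nuclei of adult male C57/BL6 mice (C57BL/6J background in the study's methods), cut from brain sections by laser capture: ventromedial (VMH), paraventricular (PVN), dorsomedial (DMH) and arcuate (ARC). Every mouse in every group carried a congenital deletion of the paternal Snord116 cluster (Snord116+/–P), an imprinted locus expressed from the paternal allele and linked to Prader-Willi syndrome, so fed and fasted mice shared the genotype and no wild-type group was analysed here. Fed mice had free access to food, and fasted mice had been without food for 24 hours. Of 12 mice (6 fasted, 6 fed), each gave between 1 and 4 of the 41 libraries: ARC held 4 fasted and 5 fed libraries, DMH 5 and 6, PVN 5 and 5, and VMH 6 and 5. A captured nucleus holds neurons of several kinds with glia and vessels, so the values are of mixed tissue. Libraries were prepared in 3 batches, which held 10, 15 and 16 libraries and both nutritional states.

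Levels are in CPM, reads scaled to the total of each library. Mice are named by state and number (Fast-86, Fed-111). The depth read from the low values of the table was 1.94 to 8.23 M reads per library, with medians of 4.42 M in fed and 3.68 M in fasted libraries. Each nucleus carried its own markers: Fezf1 in VMH, Avp and Crh in PVN, Npvf in DMH and Npy and Crabp1 in ARC were higher in every library of their nucleus than in any library of the others. The VMH marker Sox14 was not, with 4.25 to 19.5 CPM in VMH and up to 13.3 CPM elsewhere. DMH libraries also held markers of its lateral neighbours: Pmch averaged 277 CPM and Hcrt 112 CPM there, against 95.2 CPM for Npvf, and their summed level overlapped between states (203 to 800 CPM in fed and 315 to 606 CPM in fasted libraries). Many further markers of these nuclei, among them Agrp, Pomc and Oxt, were not analysed here, and neither were the receptors Insr and Igf1r.

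The genes lie apart in the genome (GRCm38, GENCODE M21 annotation): Irs1 at chr1:82233101-82291416, Irs2 at chr8:10984681-11008458 and Irs4 at chrX:141710998-141725263, all on the minus strand, Foxo1 at chr3:52268336-52353221 on the plus strand, and Foxo3 at chr10:42181841-42276755 and Foxo6 at chr4:120267079-120287349 on the minus strand. All are protein-coding. Exons of 4 of them are overlapped by genes on the other strand, and whether the counting used strand is not given in the sources used here. The antisense partners of Irs2 (9530052E02Rik) and Irs4 (Gm15295) averaged 2.09 and 1.72 CPM, against 34.0 and 390.9 CPM for Irs2 and Irs4. The partners of Foxo1 (Gm20402) and Irs1 (Gm9747) were not analysed here.

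RefSeq promoter sequences (GRCm38.p6, 250 bases before to 50 after the annotated start) were found for 5 of the 6 genes. The RefSeq start of Irs2 lies 471 bases upstream of the GENCODE start given above, so its window lies outside the GENCODE gene, and the starts of the other 4 differ by at most 60 bases between the annotations. The 3 substrate promoters are shown because they share a short element that those of Foxo1 and Foxo3 lack, and the Foxo1 promoter because Foxo1 is the gene called between fed and fasted ARC. In the substrate promoters, capitals mark the E-box CACGTG and the reverse complement TGTTTTG of CAAAACA, a core described in insulin-responsive promoters. In Irs1 these letters overlap. In the Foxo1 promoter, capitals mark the GC box GGGCGG on either strand, 2 of whose copies overlap. Irs1 is from chr1:82291390-82291689 (minus strand), Irs2 from chr8:11008880-11009179 (minus), Irs4 from chrX:141725168-141725467 (minus) and Foxo1 from chr3:52268087-52268386 (plus).
Irs1: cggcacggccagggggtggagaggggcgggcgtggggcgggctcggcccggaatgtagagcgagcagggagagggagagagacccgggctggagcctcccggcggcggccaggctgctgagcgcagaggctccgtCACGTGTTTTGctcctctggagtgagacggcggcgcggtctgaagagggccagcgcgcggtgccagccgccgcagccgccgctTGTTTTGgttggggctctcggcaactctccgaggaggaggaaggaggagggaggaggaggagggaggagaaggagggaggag
Irs2: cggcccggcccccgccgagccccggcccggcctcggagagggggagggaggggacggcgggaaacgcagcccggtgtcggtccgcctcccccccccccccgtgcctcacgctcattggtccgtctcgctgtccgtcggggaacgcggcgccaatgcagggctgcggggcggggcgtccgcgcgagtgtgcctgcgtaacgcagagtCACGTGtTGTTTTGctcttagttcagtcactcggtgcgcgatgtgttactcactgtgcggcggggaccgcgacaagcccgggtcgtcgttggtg
Irs4: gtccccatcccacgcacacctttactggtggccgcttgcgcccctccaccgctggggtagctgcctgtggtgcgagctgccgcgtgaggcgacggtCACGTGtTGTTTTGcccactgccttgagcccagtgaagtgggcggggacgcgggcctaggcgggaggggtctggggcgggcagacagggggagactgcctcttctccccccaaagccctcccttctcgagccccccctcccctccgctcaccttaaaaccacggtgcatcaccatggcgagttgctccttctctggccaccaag
Foxo1: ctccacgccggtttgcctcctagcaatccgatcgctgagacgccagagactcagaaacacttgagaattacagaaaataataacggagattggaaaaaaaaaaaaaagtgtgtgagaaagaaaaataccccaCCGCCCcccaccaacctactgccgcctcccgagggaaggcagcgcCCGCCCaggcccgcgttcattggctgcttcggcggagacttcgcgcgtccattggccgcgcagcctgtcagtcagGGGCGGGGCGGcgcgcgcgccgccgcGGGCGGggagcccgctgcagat

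The E-box began 115 bases before the RefSeq start in Irs1, 44 before in Irs2 and 154 before in Irs4, and in each a TGTTTTG began within 10 bases of it. The longest run common to the Irs2 and Irs4 promoters, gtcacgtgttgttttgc, was 17 bases long and held both. Of 32851 promoters of this length, 7.15% held CACGTG, 6.28% held CAAAACA on either strand, and 9 (0.0274%) held both with starts within 10 bases of each other, of which 3 were Irs1, Irs2 and Irs4. CACGTG was added to the search after the sequences had been seen, and so was its pairing with CAAAACA within 10 bases. That these 3 promoters are among the 9 is therefore no test. Letters searched on both strands were also GTAAACA, the core FOXO site, which none of the 5 promoters held (3.65% of all promoters did), GGGCGG, of which Foxo1 and Foxo3 held 5 each, Irs1 and Irs4 2 each and Irs2 1 (35.7%), TGACG, of which Foxo3 and Irs1 held 1 each (20.8%), and TATAAA, which none held (13.6%). GC content was 61.3% in Foxo1, 75.0% in Foxo3, 71.3% in Irs1, 72.0% in Irs2 and 67.0% in Irs4, against a median of 52.7% over all promoters. A match is a description of these letters only.

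Irs4 had the highest level of the 6 genes in every nucleus. Per kilobase of exon, the mean over the 41 libraries was 62.1 CPM for Irs4, 9.09 for Foxo3, 8.34 for Foxo1, 5.37 for Irs2, 2.99 for Irs1 and 1.68 for Foxo6. This order did not hold in every nucleus: per kilobase, mean Foxo1 (15.4 CPM) was above Foxo3 (7.48) in ARC and, at 4.81 CPM, below Irs2 (5.31) in VMH. The plot of levels per kilobase shows each nucleus apart. Irs4, a substrate whose expression is otherwise low in most adult tissues, was the only one of the 3 substrates whose level differed between nuclei by the test that follows.

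**Figure D1:**
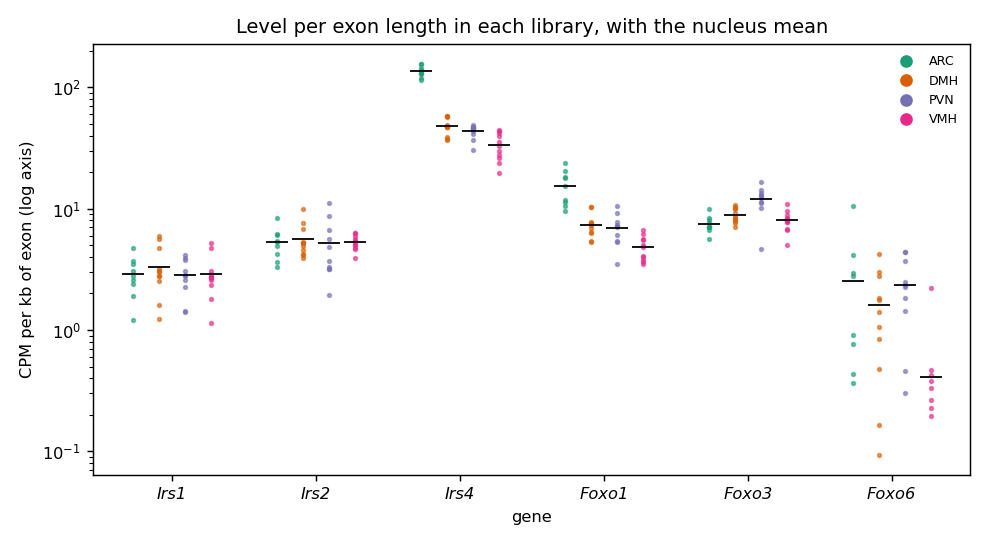
CPM per kilobase of exon (log axis) of the 6 genes in ARC, DMH, PVN and VMH, with 1 point per library and a bar at the mean of each nucleus. Irs4 has the highest mean in every nucleus, and 4 libraries in which Foxo6 was at 0 have no point on the log axis but enter its means.

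The first comparison asked how the level of each gene differs between nuclei, averaged over fed and fasted mice. Levels differed for 4 of the 6 genes (Irs4, Foxo1, Foxo6 and Foxo3) by the F-test of limma at an adjusted p under 0.1, against 43.3% of all 10121 genes tested. Of these, Foxo6 failed the filter on low values in VMH and entered the test through ARC, DMH and PVN, so its call is a description only. Between pairs of nuclei, the share of all genes called was 18% for ARC with DMH, 16.7% for ARC with PVN, 30.3% for ARC with VMH, 18% for DMH with PVN, 23.4% for DMH with VMH and 31.3% for PVN with VMH. In the bulk libraries used here, fewer cells of a type and less RNA per cell cannot be told apart.

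Irs4 averaged 855 ± 92.1 CPM in ARC (SD, n = 9), against 301 ± 49.5 (DMH, n = 11), 273 ± 35.9 (PVN, n = 10) and 209 ± 53.9 CPM (VMH, n = 11). The lowest ARC library, at 724 CPM, was above the highest library of any other nucleus, at 368 CPM. On the log2 scale, ARC was higher than VMH by 2.03 ± 0.08 (SE, limma adjusted p = 2.5e-25), a 4.08-fold difference, and higher than DMH by 1.51 ± 0.08 (adjusted p = 1.27e-19). DMH and PVN did not separate (difference 0.15 ± 0.08, adjusted p = 0.252), and VMH was below both (adjusted p = 9.42e-07 against DMH and 0.000278 against PVN).

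Foxo1 followed a like order. It averaged 134 ± 42.9 CPM in ARC (SD, n = 9), against 63.9 ± 14.5 (DMH, n = 11), 60.0 ± 17.5 (PVN, n = 10) and 41.7 ± 9.40 CPM (VMH, n = 11). The ARC level was 1.04 ± 0.14 above DMH on the log2 scale (limma adjusted p = 1.99e-07), a 2.06-fold difference, and 1.67 ± 0.14 above VMH (adjusted p = 1.16e-13), a 3.18-fold difference. DMH and PVN differed by 0.13 ± 0.14 (adjusted p = 0.594), and both were above VMH (adjusted p = 0.000367 and 0.00518).

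Foxo3, the most broadly expressed FOXO gene, was highest in PVN, at 90.1 ± 23.6 CPM (SD, n = 10), against 67.5 ± 9.28 in DMH (n = 11), 60.7 ± 11.9 in VMH (n = 11) and 56.6 ± 9.26 in ARC (n = 9). PVN was above ARC by 0.61 ± 0.14 and above VMH by 0.52 ± 0.13 on the log2 scale (limma adjusted p = 0.00112 and 0.00203). Its difference from DMH was 0.35 ± 0.13 (adjusted p = 0.0737), a call lost without any one of mice Fast-100, Fast-101, Fed-125, Fed-127, Fast-305, Fed-308 or Fast-311 (adjusted p between 0.123 and 0.25) and without the batch term (0.102). ARC, DMH and VMH did not separate from each other (adjusted p between 0.229 and 0.698).

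Foxo6, a brain-enriched FOXO gene, was near the limit of these libraries. It was at 0 in 4 libraries, for which a count of 0 allows up to 0.622 to 1.55 CPM (3 reads, counting error only), and rested on fewer than 10 reads in 19. Its mean was 1.07 ± 1.63 CPM in VMH (SD, n = 11) and 6.66 ± 8.65 in ARC (n = 9), 4.2 ± 3.39 in DMH (n = 11) and 6.19 ± 3.79 in PVN (n = 10). Without its highest library, a choice made after seeing the data, the ARC mean was 4.06 CPM (without mouse Fed-111) and the VMH mean 0.60 CPM (without mouse Fast-101). VMH was below ARC by 1.86 ± 0.48, below DMH by 1.56 ± 0.46 and below PVN by 2.29 ± 0.47 on the log2 scale (limma adjusted p = 0.00255, 0.0104 and 0.000123), and the other 3 nuclei did not separate (adjusted p between 0.340 and 0.757). In VMH alone Foxo6 failed the filter on low values, and it entered this fit through libraries of the other nuclei, where it was higher. Its differences from VMH are thus given as a description only. Their sizes moved with the processing, from 1.16 to 2.47 for ARC, 0.92 to 2.23 for DMH and 1.42 to 3.12 for PVN. Without batch 1, the differences from ARC and DMH no longer passed (limma adjusted p = 0.107 and 0.153).

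Irs1 and Irs2, the substrates that carry most insulin signalling in peripheral tissue, showed no difference between nuclei that passed the test (F-test of limma, adjusted p = 0.947 and 0.781). Mean Irs1 lay between 25.8 and 30.3 CPM and mean Irs2 between 33.1 and 35.6 CPM in the 4 nuclei. The widest pairwise differences were 0.15 ± 0.24 (Irs1) and 0.20 ± 0.18 (Irs2) on the log2 scale, both between DMH and PVN.

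The second comparison asked which of the genes change with a 24-hour fast within a nucleus. Of 23 combinations of gene and nucleus tested, 1 passed: Foxo1 rose in ARC. In ARC, 1 of 6 genes was called, against 0.176% of the 9654 genes tested there (0.104% higher in fasted). In that nucleus 0.0725% of genes were called lower. None was called in DMH (0.0103% of genes), PVN (0.367%, of which 0.304% higher and 0.063% lower) or VMH (0.0208%), where Foxo6 failed the filter on low values and 5 of the 6 genes were tested. At an unadjusted p under 0.05, 1 gene passed in each nucleus: Foxo1 in ARC and Irs4 in DMH, PVN and VMH, against 8.1%, 6.62%, 9.97% and 6.98% of all genes.

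Foxo1 in fed ARC libraries was at 83.1, 91.0, 98.3, 102 and 133 CPM, and in fasted ARC libraries at 154, 159, 178 and 205 CPM. Every fasted library was above every fed one, which held in either direction for 2.13% of genes tested in ARC. In no other nucleus did the fed and fasted values of any of the 6 genes fail to overlap (background 1.31% of genes in PVN, 0.5% in VMH and 0.4% in DMH). The ARC means were 101.4 ± 18.9 (SD, n = 5) and 174 ± 23.1 CPM (SD, n = 4), and the log2 change was 0.76 ± 0.16 (SE, limma adjusted p = 0.0867), a 1.7-fold rise. Within batches the difference was 1.30, 0.74 and 0.51 on the log2 scale, higher in fasted mice in all 3. The call lay close to the threshold: it was lost when any one of mice Fast-86, Fast-100, Fast-311, Fed-111, Fed-125, Fed-127 or Fed-308 was left out (adjusted p between 0.123 and 0.348), without batch 1 (0.344), without the batch term (0.314) with a pseudocount of 0.1 (0.128), without a filter (0.131) and in the fit over all libraries (0.193), while the log2 change lay between 0.60 and 0.78 in these fits.

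In ARC, summed markers of endothelium and of VMH did not overlap between fed and fasted libraries. The summed level of the measured endothelial markers (Cldn5, Flt1 and Cdh5, 3 of 5 listed) was 55.0 to 58.8 CPM in fed and 39.0 to 44.3 CPM in fasted libraries. That of the VMH markers Fezf1 and Sox14 (2 of 4 listed) was 6.16 to 12.4 CPM in fed and 2.13 to 5.91 CPM in fasted libraries. Tested singly, Flt1 (-0.53 ± 0.21), Cdh5 (-0.95 ± 0.54) and Sox14 (-0.79 ± 0.50) were lower on the log2 scale and Cldn5 was higher (0.30 ± 0.50). None of them passed (limma adjusted p between 0.559 and 0.895). How often sums of other genes separate in this way was not tested. In ARC, Sox14 averaged 4.84 CPM and Fezf1 1.53 CPM. Since Sox14 overlapped between VMH and the other nuclei, the sum is no clean measure of VMH tissue. None of these endothelial and VMH markers was at 0 in any ARC library. Their part in the result was not tested.

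Outside ARC, fed and fasted Foxo1 values overlapped in each nucleus. In PVN, fed libraries were at 30.4, 46.2, 60.7, 62.5 and 66.9 CPM and fasted libraries at 47.0, 52.2, 63.3, 79.4 and 91.8 CPM (log2 change 0.33 ± 0.20, limma adjusted p = 0.617). In VMH, fed libraries were at 30.5, 31.7, 34.5, 42.1 and 53.8 CPM, and the 6 fasted libraries ran from 32.9 to 57.7 CPM with a median of 45.8 (0.21 ± 0.19, adjusted p = 0.901). In DMH, the 6 fed libraries ran from 46.8 to 88.6 CPM with a median of 59.7, and fasted libraries were at 46.1, 60.3, 64.5, 66.2 and 90.0 CPM (0.02 ± 0.19, adjusted p = 0.990). The fasting change of Foxo1 in ARC exceeded its mean in the other nuclei by 0.58 ± 0.24 on the log2 scale, but this difference did not pass the test (limma adjusted p = 0.928), and a rise particular to ARC was thus not shown.

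**Figure D2:**
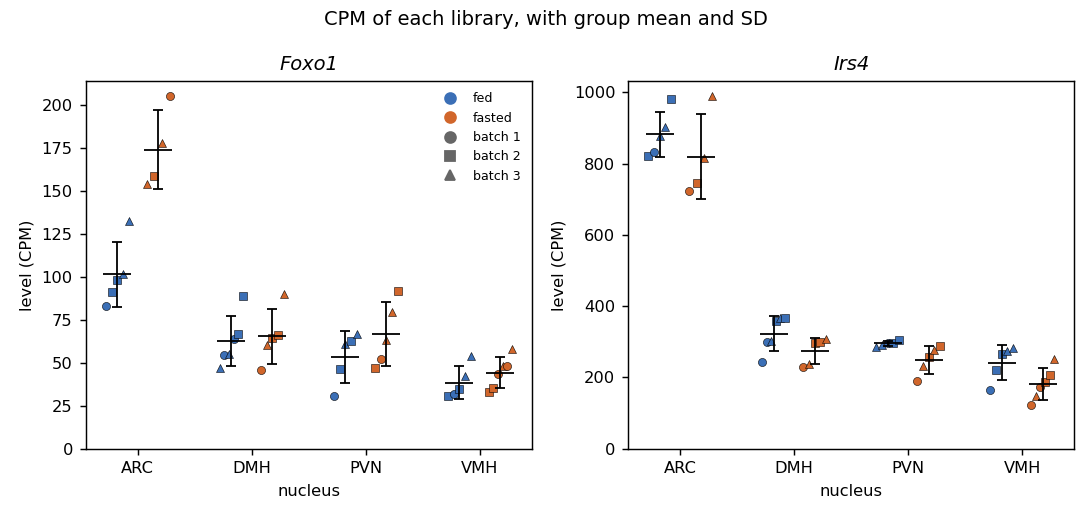
CPM of Foxo1 (left) and Irs4 (right) in each library by nucleus, with fed libraries in blue, fasted in orange, batches as symbols, and bars at the group mean ± SD. In ARC the 4 fasted libraries lie at 154 CPM of Foxo1 or more and the 5 fed ones at 133 or less, and Irs4 is highest in ARC in both states.

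Irs4 was lower on average in fasted mice in each nucleus, without passing the test in any. In PVN, fed libraries were at 285, 292, 297, 298 and 306 CPM and fasted libraries at 191, 234, 258, 277 and 288 CPM, so that 4 of 5 fasted libraries were below every fed one. The log2 change was -0.26 ± 0.11 (limma adjusted p = 0.438). In VMH, fed libraries were at 166, 221, 266, 273 and 282 CPM, and the 6 fasted libraries ran from 123 to 252 CPM with a median of 181 (-0.35 ± 0.14, adjusted p = 0.619). All fasted VMH libraries were below the fed median, though the groups overlapped.

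In DMH, the 6 fed libraries ran from 244 to 368 CPM of Irs4 with a median of 331, and fasted libraries were at 230, 238, 297, 298 and 307 CPM (-0.28 ± 0.11, limma adjusted p = 0.695). Beside this, the summed PVN markers Avp and Crh (2 of 5 listed, Crh at 0 in 2 DMH libraries) were at 1.04 to 3.77 CPM in fed and 4.53 to 7.51 CPM in fasted DMH libraries. Singly, neither passed there (log2 change 1.86 ± 0.62 for Crh and 0.63 ± 0.56 for Avp, limma adjusted p = 0.695 and 0.890). The part of these markers, and of Hcrt, in the result was not tested. In ARC, where Irs4 is highest, fed libraries were at 822, 833, 878, 901 and 980 CPM and fasted libraries at 724, 747, 817 and 988 CPM (-0.12 ± 0.09, adjusted p = 0.718). The ARC groups overlapped, with 3 of 4 fasted libraries below every fed one and 1 above them all.

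The other genes did not pass in any nucleus. Irs2, the substrate known to rise with fasting in liver, had a log2 change of 0.53 ± 0.27 in PVN, 0.32 ± 0.23 in DMH, 0.16 ± 0.26 in ARC and 0.07 ± 0.21 in VMH (limma adjusted p between 0.524 and 0.978). In PVN, fed libraries were at 12.4, 19.98, 20.1, 23.4 and 69.8 CPM and fasted libraries at 21.0, 30.7, 35.7, 42.5 and 55.2 CPM. All fasted PVN libraries were above the fed median, and 1 fed library (mouse Fed-111) was above them all.

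Irs1 had a log2 change of -0.50 ± 0.28 in DMH, -0.24 ± 0.32 in VMH, 0.04 ± 0.32 in ARC and 0.23 ± 0.28 in PVN (limma adjusted p between 0.801 and 0.982). Its levels ran from 10.5 to 54.2 CPM over the 41 libraries, with fed and fasted values overlapping in each nucleus. Foxo3 had log2 differences of 0.29 ± 0.18 in VMH, 0.04 ± 0.19 in ARC, -0.11 ± 0.17 in DMH and -0.16 ± 0.18 in PVN (adjusted p between 0.811 and 0.967), and 1 fasted PVN library (mouse Fast-86), at 35.0 CPM, lay far below the others at 95.8 to 107 CPM. Foxo6 had differences of 0.49 ± 0.61 in ARC, -0.32 ± 0.53 in DMH and -1.03 ± 0.57 in PVN (adjusted p between 0.582 and 0.947), with the widest standard errors of the 6 genes. Without single libraries, Foxo6 ran from 0.072 to 1.02 in ARC, -0.61 to -0.073 in DMH and -1.54 to -0.61 in PVN. In ARC its mean went from 7.70 CPM in fed to 5.36 CPM in fasted libraries, against the sign of the log2 value, with 1 fed library (mouse Fed-111) at 27.4 CPM.

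**Figure D3:**
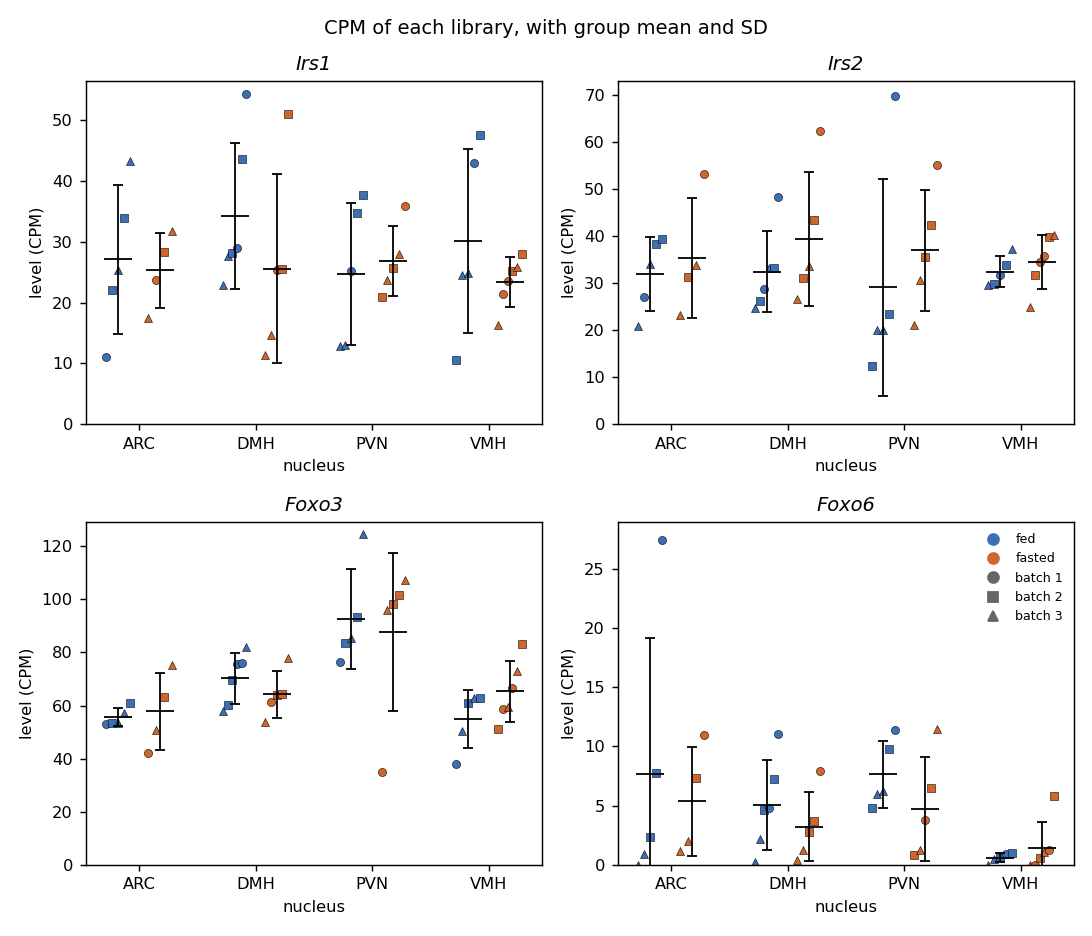
CPM of Irs1, Irs2, Foxo3 and Foxo6 in each library by nucleus, with fed libraries in blue, fasted in orange, batches as symbols, and bars at the group mean ± SD (cut at 0 for Foxo6). Fed and fasted values overlap in every nucleus for all 4 genes.

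The third comparison asked for the fasting change averaged over the 4 nuclei, with mouse as a random block. It uses the same libraries as the comparisons within nuclei. Irs4 fell and Foxo1 rose, 2 of the 6 genes, against 3.18% of 10121 genes tested (1.52% higher and 1.66% lower in fasted). Irs4 fell by 0.25 ± 0.06 on the log2 scale (limma adjusted p = 0.00954), to 0.840 of its fed level. Foxo1 rose by 0.34 ± 0.10 (adjusted p = 0.0531), 1.27-fold. The mean changes of the others were 0.24 ± 0.13 for Irs2 (adjusted p = 0.418), -0.11 ± 0.17 for Irs1 (0.831), -0.20 ± 0.33 for Foxo6 (0.857) and 0.00 ± 0.10 for Foxo3 (0.997).

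The mean fall of Irs4 passed without any one mouse (adjusted p between 0.00669 and 0.0584), without any one nucleus (between 0.0154 and 0.0846) and with depth as a covariate (-0.23 ± 0.06, 0.0391), and did not pass without the batch term (-0.25 ± 0.08, 0.387). The mean rise of Foxo1 did not pass without ARC (0.20, limma adjusted p = 0.551) or PVN (0.34, 0.173), without batch 1 (0.27, 0.207), with depth as a covariate (0.32, 0.118), without the batch term (0.35, 0.425), or without any one of mice Fast-86, Fast-100, Fed-111, Fed-308 or Fast-311 (between 0.130 and 0.176).

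**Figure D4:**
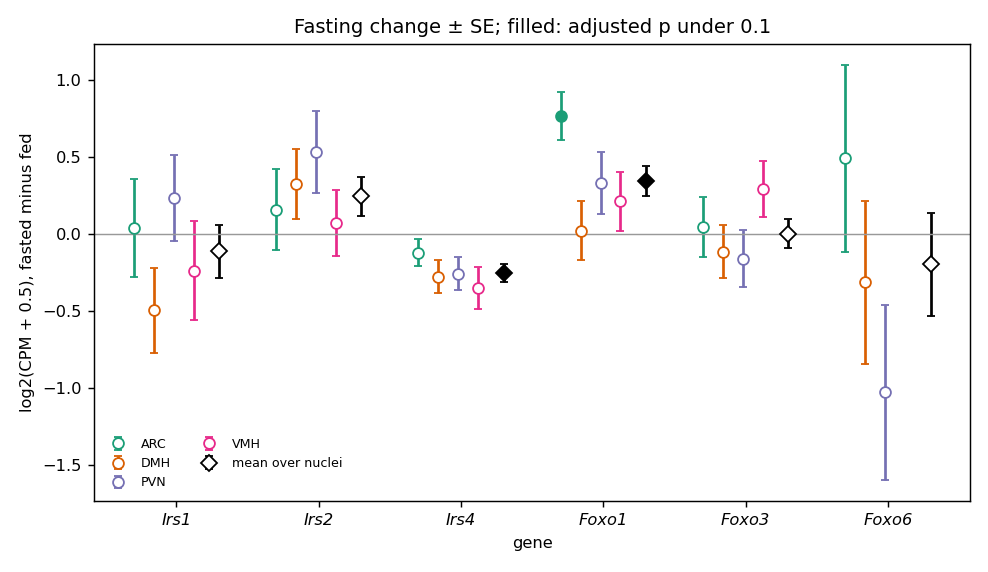
Log2(CPM + 0.5) fasted minus fed of the 6 genes, ± SE, in each nucleus (circles) and as the mean over nuclei (diamonds), with symbols filled at an adjusted p under 0.1. Foxo1 in ARC (0.76) and the means of Foxo1 (0.34) and Irs4 (-0.25) are filled, and Foxo6 has no VMH value.

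Within each nucleus and batch, taken as 12 separate differences that share mice, Irs4 was lower in fasted mice in 11, the exception being ARC in batch 3 at 0.0148 on the log2 scale, and its lowest value was -0.64 in PVN of batch 1. Foxo1 was higher in 10 of 12, with DMH in batches 1 and 2 at -0.36 and -0.24. Irs2 was higher in 9 of 12, Irs1 and Foxo3 in 6 each and Foxo6 in 5. As a single value per mouse, the mean over its nuclei of the centred log2 level, Irs4 was lower in fasted mice by 0.22 (difference -0.22, exact 2-sided permutation test within batches, p = 0.0185, 6 against 6 mice) and Foxo1 was higher by 0.32 (p = 0.0278). Among the 216 relabellings possible, the smallest p is 0.00926, and of the 6 genes tested in this way the other 4 gave exact p values between 0.176 and 0.963.

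In Irs4, both fed mice were above both fasted mice in batches 2 and 3, with fed mice at 0.16 to 0.23 and fasted mice at -0.10 to 0.00. In batch 1 the groups overlapped, with fed mice at -0.28 (Fed-92) and -0.04 (Fed-111) and fasted mice at -0.45 (Fast-86) and -0.21 (Fast-85). Fed-92 and Fast-85 gave 1 library each, from DMH and VMH, while Fed-111 and Fast-86 gave 4 each. In Foxo1, fasted and fed mice separated in batches 1 and 3 and overlapped in batch 2, where mouse Fast-101, at -0.18, was below both fed mice. Fast-101 gave 3 libraries, none of them from ARC, while both fed mice of that batch gave 4 each.

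**Figure D5:**
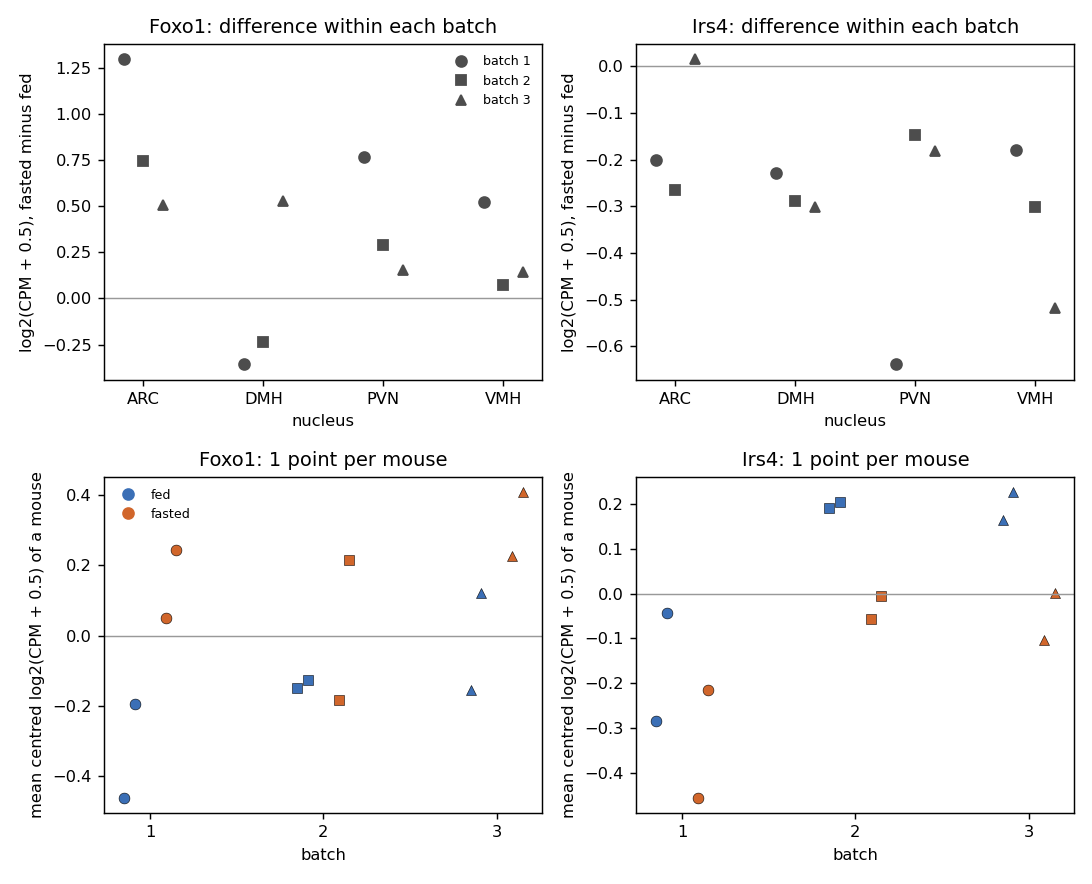
Top: log2(CPM + 0.5) fasted minus fed of Foxo1 (left) and Irs4 (right) within each nucleus and batch. Bottom: 1 point per mouse, the mean over its nuclei of the nucleus-centred log2(CPM + 0.5), by batch, fed in blue and fasted in orange. For Irs4, 11 of the 12 differences lie below 0, and both fed mice lie above both fasted mice in batches 2 and 3.

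The fourth comparison asked whether the fasting change itself differs between nuclei. None of the 6 genes passed the F-test of limma (lowest adjusted p 0.932, for Foxo1), and neither did any of the 10121 genes (0% called), of which 522 (5.16%) were at an unadjusted p under 0.05. For Irs4 the change in ARC was 0.21 ± 0.14 above its mean in the other nuclei (limma adjusted p = 0.961). Set against the rest in this way, ARC, DMH and VMH had 0 genes called and PVN had 1 (0.00988%), which was none of the 6.

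Of 88 further genes listed for the insulin, PI3K, AKT and FOXO pathway, 37 were measured: 1 of 4 ligands, 0 of 4 receptors, 4 of 7 adaptors, 4 of 6 PI3K subunits, 5 of 10 phosphatases and inhibitors, 6 of 20 kinases and TOR components, 4 of 10 FOXO partners and 13 of 27 genes widely described as FOXO targets. Fasting raised 1 of the 37 in ARC (0.104% of all genes rose there) and 1 in PVN (0.304%), raised none in DMH or VMH (0% of all genes in each), and lowered none in any nucleus. The list, like the 6 genes, was chosen with earlier results of these data known. Its counts are therefore a description and no test of the pathway. The median log2 change of the list was 0.15 in PVN, 0.04 in ARC, -0.05 in VMH and -0.06 in DMH, against 0.01, 0.02, 0.00 and 0.01 over all genes tested.

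The gene that rose in ARC was Npy, the orexigenic neuropeptide and a described FOXO1 target, from 267 ± 69.4 CPM (SD, n = 5) to 730 ± 373 CPM (SD, n = 4), a log2 change of 1.35 ± 0.16 (limma adjusted p = 0.00114). Fed ARC libraries ran from 195 to 370 CPM of Npy and fasted ones from 326 to 1226 CPM. The study had itself reported a rise of Npy with fasting in ARC of Snord116+/–P mice. The gene that rose in PVN was Cited2, a transcriptional co-regulator, from 43.5 ± 17.8 to 81.2 ± 43.7 CPM (SD, n = 5 each), a log2 change of 0.85 ± 0.17 (adjusted p = 0.0524) that was lost without any one of 7 of the 10 PVN libraries, without batch 1, without the batch term or in the fit over all libraries. Npy was lost without the batch term and in the fit over all libraries.

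The next smallest p values in ARC were those of Bnip3, a mitophagy gene (0.80 ± 0.24, limma adjusted p = 0.407), and Pik3r2, a regulatory subunit of PI3K (0.96 ± 0.39, 0.554). In DMH they were those of Txnip, an inhibitor of thioredoxin and of glucose uptake (1.37 ± 0.37, 0.569), Sesn3, a sestrin (-0.47 ± 0.16, 0.695), and Sh2b1, an adaptor of the leptin and insulin receptors (0.81 ± 0.37, 0.752). In PVN they were those of Ywhaq, a 14-3-3 protein (-0.33 ± 0.10, 0.259), and Ptprf, a receptor phosphatase (0.36 ± 0.16, 0.474), and in VMH those of Igf2, the measured ligand (1.17 ± 0.36, 0.516), Txnip (1.67 ± 0.55, 0.536) and Cpe, the peptide-processing carboxypeptidase (-0.23 ± 0.08, 0.547).

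Averaged over nuclei, 2 of the 37 passed, against 3.18% of all genes: Ywhaq fell by 0.18 ± 0.04 on the log2 scale (-0.18, limma adjusted p = 0.0166) and Txnip rose by 0.93 ± 0.23 (0.0194). Levels differed between nuclei for 18 of the 37 (48.6%), against 43.3% of all genes.

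Among the 7638 other genes averaging 5 CPM or more, the levels most like those of Irs4 over the 41 libraries, after batch means were removed, were those of Prune2 (Pearson r = 0.92), Unc5d (0.90) and the ARC marker Crabp1 (0.89). Those most like Foxo1 were Crabp1 (0.81), Ezr (0.81) and Unc5d (0.80), so Unc5d and Crabp1 were on both lists. Unc5d, a netrin receptor, averaged 405 CPM in ARC and 110 in VMH. Those most like Foxo3 were Pou3f2 (0.66), Nrn1 (0.64) and Ndnf (0.62), all highest in PVN, where Pou3f2 averaged 105 CPM against 3.67 in ARC.

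The nearest genes to Foxo6 were Eif2s3x (0.70), Ubfd1 (0.69) and Sgms2 (0.66), to Irs2 Klf9 (0.56), Ptprf (0.56) and Hist1h4d (0.51), and to Irs1 Zfp182 (0.56), Gls2 (0.53) and Fbrsl1 (0.52). The libraries share mice, depth and, within a nucleus, cell content, so these values are descriptions. Among the 6 genes themselves, once nucleus, batch and state means were removed, r lay between -0.29 (Irs1 with Irs4) and 0.31 (Foxo3 with Irs4) over the 15 pairs, and Foxo1 and Irs4 had an r of -0.06.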

How the data were processed

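RNA-seq of laser-captured ARC, DMH, PVN and VMH of fed and fasted Snord116+/–P mice was analysed. As the labels and the methods of the study state, RNA was amplified (Ovation RNA-Seq V2), mapped to GRCm38 with TopHat2 (2.0.11 in the submitters' processing notes) and analysed with edgeR and limma after outlier libraries were removed. Such removal can lower the spread between replicates. Cufflinks 2.2.1 is also named in those notes, with no role. Which program made the counts, and whether it used strand, is not given in the sources used here. The authors deposited CPM per Ensembl gene. These summed to 554896 to 689010 per library. No gene between identifier numbers 861 and 28747 is in the table, and what share of the total those genes hold was not tested. Of 43 samples, 41 were matched to a column. The table has 2 further columns that match no sample. They are named for ARC of mice Fast-85 and Fed-92, while the labels give PVN samples of those mice. Which nucleus they hold was not settled, so neither these columns nor these 2 PVN samples were used, and ARC and PVN each have the n of the matched libraries only. Low values fell on whole multiples of 1 read for 96.9% to 98.9% of genes (tolerance 0.02), which gave the depth, but whole reads were not recovered (101 genes held positive values under 0.01 CPM), so no count test was run. Amplified reads are not independent molecules, and intervals and floors cover counting error only.

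Values were tested as log2(CPM + 0.5) with limma 3.58.1 (R 4.3.3, eBayes with a trend, 2-sided), which understates the change of low genes. Genes were kept where the number of libraries at 1 CPM or more reached the size of the smaller group, batch was a covariate, and p values were adjusted over all genes tested (Benjamini-Hochberg, threshold 0.1). Each nucleus was fitted alone. Level, interaction and mean fasting change came from 1 fit of 8 group means over 41 libraries. Same-numbered libraries come from 1 mouse, which was a random block for the mean fasting change (consensus correlation -0.00325) and a fixed block as an alternative otherwise. Fits were tested on simulated data, of which no value is given here. Per gene, length was the union of its annotated exons.

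The 6 genes, the pathway list and the markers were chosen with earlier results of these data known. Genes named from the list were those called in a nucleus and the 3 with the smallest p in each. The nearest genes were the 3 with the highest r. Alternatives were other pseudocounts, filters, normalizations, weights and covariates, leaving out a library, a mouse or batch 1, the mouse block and, added after seeing the data, leaving out a nucleus and differences within batches. Mice were separate animals, and each gave at most 1 library per nucleus.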

Additional observations from a re-analysis of the deposited data

Results flagged for a closer look

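In 5 of 48 groups of 4 to 6 libraries (6 genes, 8 groups), 1 library lay far from the others by Dixon's criterion. For independent, normally distributed values, 1 in 20 would give about 2.4. The groups here share mice, and Foxo6 lay near its limit, so the 2 counts are not compared as a test. Foxo3 in the fasted PVN library of mouse Fast-86 was at 35.0 CPM, against 95.8 to 107 CPM in the other 4. Irs2 in the fed PVN library of mouse Fed-111 was at 69.8 CPM, against 12.4 to 23.4 CPM, and in the fed DMH library of the same mouse at 48.4 CPM, against 24.7 to 33.3 CPM. Foxo6 in the fed ARC library of mouse Fed-111 was at 27.4 CPM, against 0 to 7.75 CPM, and in the fasted VMH library of mouse Fast-101 at 5.79 CPM, against 0 to 1.22 CPM. Mice Fast-86 and Fed-111 were both in batch 1, and the part of the batch in these values was not tested.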

How the results depend on the processing

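The number of genes called for level between nuclei was 4 under all alternatives run, a count that does not name the genes. No gene was called for a fasting change that differs between nuclei under any. The genes called in ARC went from 1 to 0 with a pseudocount of 0.1, without a filter, without the batch term, without batch 1 and in the fit over all libraries, and were 0 to 1 when single libraries were left out. Genes called for the mean over nuclei went from 2 to 0 without the batch term and to 1 with depth as a covariate, without batch 1, and, in settings chosen after seeing the data, without ARC or PVN, and were 1 to 2 without single mice. List genes called went from 1 to 0 in ARC without the batch term and in the fit over all libraries, and from 1 to 0 in PVN in those settings and without batch 1 (0 to 1 without single libraries). Changes near 0 that passed nowhere turned sign: Irs1 in ARC with library weights (-0.11) and without batch 1 (-0.27), Irs2 in ARC in the same settings (-0.013 and -0.085), Foxo1 in DMH with depth (-0.32), Foxo3 in PVN with weights (0.023) and without batch 1 (0.076), and Irs2 in VMH with weights (-0.029) and depth (-0.022). Of the means over nuclei, Foxo3 turned with median centring (-0.0053), depth (-0.015), without ARC (-0.011) and without VMH (-0.099), Foxo6 without batch 1 (0.033) and without PVN (0.098), and Irs1 without DMH (0.023). Without single libraries the change also crossed 0 for Foxo3 (-0.079 to 0.16), Irs1 (-0.27 to 0.29) and Irs2 (-0.085 to 0.36) in ARC, Foxo1 in DMH (-0.13 to 0.15), Foxo3 in PVN (-0.27 to 0.076) and Irs2 in VMH (-0.0060 to 0.19), and without single mice for the mean of Foxo3 (-0.033 to 0.095). Without single libraries, other changes kept their sign but moved in size. Among them were Irs1 in VMH (-0.61 to -0.0025), Irs4 in ARC (-0.20 to -0.057) and Irs2 in PVN (0.30 to 0.75). The causes of these moves were not tested. Mouse as a replicate block (a fixed effect) left 4 genes called for level and 0 for the difference of fasting changes, and no replicate block left 2 called for the mean over nuclei. It changed no other call. Largest absolute r among the 6 genes stayed between 0.31 and 0.37. At 1 CPM a library holds about 2 to 8 reads, which limits Foxo6.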
